A study of Mus musculus with 6 samples.

Results

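The receptor system for calcitonin gene-related peptide (CGRP) and adrenomedullin is represented here by 5 genes: Ramp1, Ramp2 and Ramp3, which encode receptor activity-modifying proteins, Calcrl, which encodes the receptor they modify, and Adm, which encodes adrenomedullin. All probe sets of the array whose annotation names exactly 1 of these genes and no other gene were taken, which gave 10 of 45101 probe sets: 3 for Ramp1, 1 for Ramp2, 1 for Ramp3, 3 for Calcrl and 2 for Adm. Ramp1 was chosen by its low unadjusted p in the comparison of knockout with wild type ventricles in these same arrays, so the genotype differences of all 5 genes are given as a description, with no test. The other 4 genes were taken because they belong to the same receptors.

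The samples are left ventricles of male C57BL/6 mice, 3 from akt2-/- mice, in which the Akt2 gene was disrupted by targeting (called Akt2 knockout), and 3 from wild type mice, all aged 12 to 16 weeks. Akt2 is a serine/threonine kinase downstream of the insulin receptor. The disruption had been backcrossed repeatedly onto C57BL/6, and the labels name no tissue-restricted promoter or Cre. Each sample was hybridised to an array of its own. Nothing in the labels ties each sample to an animal of its own, so the errors and p-values cover just the variation among these arrays, which may be technical.

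CGRP and adrenomedullin are related peptides that widen blood vessels. Both act through the calcitonin receptor-like receptor, the product of Calcrl, which reaches the cell surface and gains its ligand preference only together with a RAMP, a single-pass membrane protein. With RAMP1 it forms the CGRP receptor, and with RAMP2 or RAMP3 it forms adrenomedullin receptors. These receptors couple mainly to the stimulatory G protein and cyclic AMP. In the heart CGRP is known as a product of sensory nerve fibres around vessels, while Calcrl and Ramp2 are known from vascular endothelium, and mice without Adm, Calcrl or Ramp2 die before birth with vascular defects.

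Promoter windows of 300 bases, from 250 bases before to 50 bases after the gene start, were read from RefSeq (GRCm38.p6) for Ramp1, Ramp3, Calcrl and Adm. They are shown so that the start of Ramp1 can be set beside those of its receptor partner, of another RAMP and of the ligand. Each is written 5′ to 3′ on the gene's strand, and capitals mark every match to the searched motifs.

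Ramp1, chr1:91179572-91179871, plus strand: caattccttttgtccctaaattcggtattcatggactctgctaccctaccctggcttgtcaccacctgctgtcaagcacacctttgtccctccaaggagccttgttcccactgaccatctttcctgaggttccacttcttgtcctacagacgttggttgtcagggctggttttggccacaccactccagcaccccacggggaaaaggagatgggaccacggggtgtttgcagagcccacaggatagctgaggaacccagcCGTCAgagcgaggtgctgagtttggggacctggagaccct

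Ramp3, chr11:6658283-6658582, plus strand: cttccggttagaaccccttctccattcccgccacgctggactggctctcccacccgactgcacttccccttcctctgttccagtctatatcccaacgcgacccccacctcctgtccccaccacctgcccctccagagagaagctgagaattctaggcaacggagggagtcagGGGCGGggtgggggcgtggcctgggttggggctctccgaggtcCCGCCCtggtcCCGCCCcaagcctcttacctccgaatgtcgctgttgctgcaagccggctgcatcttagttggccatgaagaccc

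Calcrl, chr2:84425217-84425516, minus strand: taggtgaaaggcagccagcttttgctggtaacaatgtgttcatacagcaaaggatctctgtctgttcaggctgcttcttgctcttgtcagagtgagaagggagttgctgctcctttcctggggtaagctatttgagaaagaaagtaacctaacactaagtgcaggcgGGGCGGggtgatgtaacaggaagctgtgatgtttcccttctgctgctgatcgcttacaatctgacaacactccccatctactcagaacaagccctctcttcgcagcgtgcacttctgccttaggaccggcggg

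Adm, chr7:110627407-110627706, plus strand: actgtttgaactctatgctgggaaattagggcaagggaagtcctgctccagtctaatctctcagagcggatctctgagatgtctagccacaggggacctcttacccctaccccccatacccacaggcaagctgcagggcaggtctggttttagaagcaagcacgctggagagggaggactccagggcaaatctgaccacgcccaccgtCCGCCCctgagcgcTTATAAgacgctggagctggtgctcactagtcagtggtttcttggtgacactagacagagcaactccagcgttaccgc

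The motifs, searched on both strands, were the FoxO site GTAAACA, the hypoxia response core ACGTG, the cyclic AMP response half-site TGACG, the GC box GGGCGG and the TATA motif TATAA. Of 32851 promoter windows of this length in the table, 3.65% held the FoxO site, 19.6% the hypoxia core, 20.8% the half-site, 35.7% the GC box and 24.9% the TATA motif. The Ramp1 window held 1 match, a half-site on the opposite strand that begins at base 261 of the window, and no GC box. The Ramp3 window held 3 GC boxes and the Calcrl window 1. The Adm window held 1 GC box and a TATA motif matched on both strands in overlapping letters, 27 and 28 bases before the start. None of these 4 windows held the FoxO site or the hypoxia core, which says only that those letters are not in these windows.

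Signals were 1 linear value per probe set and array, put on the scale log2(signal + 21.7), and 7 of the 10 probe sets were bright enough to enter the test across all probe sets. The dim ones were 2 Ramp1 and 1 Calcrl probe sets. Median signals were 134.4, 88.6 and 91.4 in the knockout arrays and 167.3, 91.3 and 89.0 in the wild type arrays. Both replicate 1 arrays differed from the rest, with median 18S ribosomal RNA control signals of 57275 in the knockout and 82330 in the wild type, against 152.7 to 446.7 in the other 4 arrays, so differences within the replicate 1 pair and within replicates 2 and 3 are given beside the pooled ones. The labels name no batch, and the split is called the array split here. Akt2 was low in each knockout array: its brightest probe set had 477.8, 394.5 and 255.4 in the knockout arrays, against 2362.6, 2561.3 and 2505.4 in the wild type arrays. Ventricular markers were present: all 7 ventricular myocyte genes listed were bright enough to test, with summed signals of 415664 to 648615 in the knockout and 343234 to 1070692 in the wild type.

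Ramp1, the subunit that turns the shared receptor into a CGRP receptor, had lower signals in the knockout on its brightest probe set. That probe set, 1417481_at, had signals of 570.1, 682.7 and 591.0 in the knockout arrays, against 1265.6, 961.1 and 1025.8 in the wild type arrays. The groups did not overlap, and a gap of 278.4 separated the highest knockout array from the lowest wild type array. Mean signals were 614.6 ± 59.9 in the knockout and 1084 ± 160 in the wild type (SD, n = 3 each), so the knockout had 56.7% of the wild type signal. The log2 difference was -0.79 (SE 0.19). The replicate 1 arrays are called the first pair below. Wild type replicate 1 was the highest array and knockout replicate 1 the lowest, so the replicate 1 pair differed by -1.12 and replicates 2 and 3 by -0.63. Under median scaling of the arrays the difference was -0.69 and the groups overlapped.

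The other probe sets of Ramp1 were dim and did not separate the groups. 1431413_at had 7.8, 38.8 and 33.1 in the knockout arrays, against 87.4, 48.9 and 38.3 in the wild type arrays, and knockout replicate 2 overlapped wild type replicate 3 by 0.5 signal units. Its log2 difference of -0.75 (SE 0.383) came mostly from the replicate 1 pair, at -1.89, against -0.18 in replicates 2 and 3. 1447474_at had 114.5, 65.2 and 90.6 in the knockout arrays, against 72.5, 166.7 and 84.7 in the wild type arrays. It had a log2 difference of -0.17 (SE 0.35; 0.53 for the first pair and -0.52 over the other arrays). Only the brightest Ramp1 probe set thus had a separation of the groups, and the transcript region that each probe set reads was not analysed here.

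Ramp2, which directs the receptor towards adrenomedullin, had nearly the same signal in both genotypes. Its probe set 1418187_at had 1795.4, 2545.6 and 2449.4 in the knockout arrays, against 1785.9, 2536.1 and 2545.3 in the wild type arrays. The replicate 1 arrays were the low ones in both genotypes, and the groups overlapped fully. The log2 difference was -0.01 (SE 0.236; 0.01 for the first pair and -0.02 over the other arrays), and its sign turned to 0.09 under median scaling. A further 2 probe sets named both Ramp2 and Vps25 and were not counted as members. 1421051_s_at had means of 1918 ± 180 in the knockout and 1824 ± 44.6 in the wild type, and 1428621_a_at had 2549 ± 72.3 in the knockout and 2701 ± 598 in the wild type (SD, n = 3 each).

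Ramp3, which also makes an adrenomedullin receptor, had 265.1, 299.4 and 318.4 in the knockout arrays, against 298.9, 384.7 and 532.2 in the wild type arrays. The groups overlapped, since the lowest wild type array, replicate 1, lay below knockout replicates 2 and 3. Within each replicate number the knockout array was the lower. Means were 294.3 ± 27 in the knockout and 405.3 ± 118 in the wild type (SD, n = 3 each), a log2 difference of -0.40 (SE 0.241). For the first pair alone it was -0.16, and over the other arrays -0.52. The wild type spread rested largely on replicate 3, without which the difference was -0.20.

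**Figure D1:**
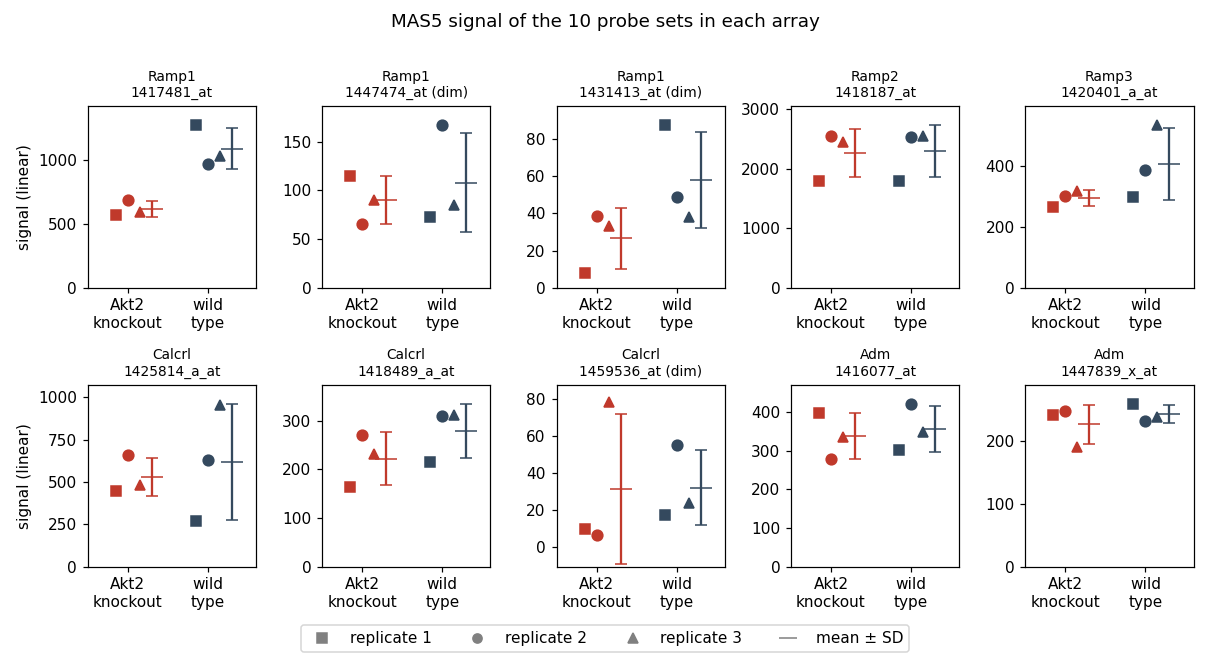
Linear signal (vertical axes, each with its own scale) of the 10 probe sets in 3 Akt2 knockout arrays (red, left) and 3 wild type arrays (blue, right), with symbols for the replicate number and bars for mean ± SD. The 3 knockout points of Ramp1 1417481_at, 570.1 to 682.7, lie below its 3 wild type points, 961.1 to 1265.6, while in the other 9 probe sets the groups overlap; probe sets marked dim were not tested.

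Calcrl, the receptor core, gave different pictures on its 3 probe sets. The brightest, 1425814_a_at, had 447.7, 657.5 and 479.8 in the knockout arrays, against 271.2, 628.3 and 953.0 in the wild type arrays. The knockout arrays lay inside the wild type range, and the wild type held both the lowest and the highest array. Its log2 difference was -0.07 (SE 0.439; 0.68 for the first pair and -0.45 over the other arrays), and the pooled sign turned to 0.01 under quantile normalization and 0.02 under median scaling. The probe set 1418489_a_at had 164.0, 270.1 and 232.2 in the knockout arrays, against 215.4, 310.1 and 310.8 in the wild type arrays. The groups overlapped, but within each replicate number the knockout array was the lower, and the log2 difference was -0.31 (SE 0.248; -0.35 for the first pair and -0.29 over the other arrays). With 1 array left out it ran from -0.47 (without wild type replicate 1) to -0.13 (without knockout replicate 1). The dim 1459536_at had 9.5, 6.2 and 78.5 in the knockout arrays, against 17.0, 55.2 and 23.9 in the wild type arrays, which gives no usable difference.

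Adm, the ligand gene, differed by less than the spread between replicates on both probe sets. 1416077_at had 397.8, 278.5 and 334.5 in the knockout arrays, against 302.1, 419.8 and 347.1 in the wild type arrays, with means of 336.9 ± 59.7 in the knockout and 356.3 ± 59.4 in the wild type (SD, n = 3 each). Its log2 difference was -0.08 (SE 0.214; 0.37 for the first pair and -0.30 over the other arrays), and it was 0.02 under median scaling. 1447839_x_at had 241.1, 246.4 and 189.7 in the knockout arrays, against 257.6, 230.6 and 237.0 in the wild type arrays (log2 -0.10, SE 0.18).

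**Figure D2:**
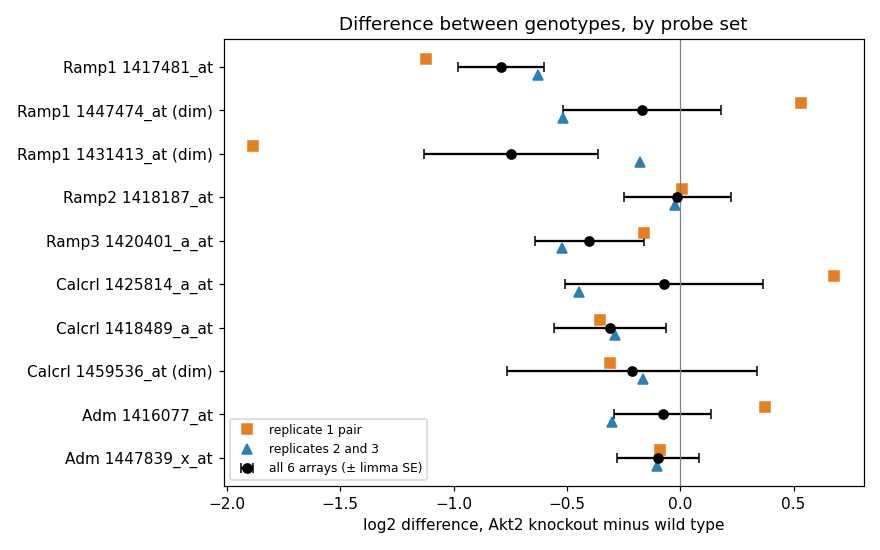
Log2 difference in signal, Akt2 knockout minus wild type (horizontal axis), for each of the 10 probe sets, from all 6 arrays (black, bars are limma standard errors), the replicate 1 pair (orange squares) and replicates 2 and 3 (blue triangles). All 10 pooled values, from 5 genes, are below 0, from -0.79 for Ramp1 1417481_at to -0.01 for Ramp2. Over all tested genes 5174 of 11075 were lower, counting only the brightest probe set of each gene. The 10 values include dim probe sets and several probe sets of the same gene, so the 2 counts are not alike. Under median scaling the pooled values of Ramp2, Calcrl 1425814_a_at and Adm 1416077_at were above 0. The replicate 1 pair is above 0 for Ramp1 1447474_at, Ramp2, Calcrl 1425814_a_at and Adm 1416077_at.

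Over the whole array, 0 of 22519 tested probe sets passed an adjusted p of 0.05 in limma, a share of 0%, with 453 at an unadjusted p under 0.05. The disrupted gene was among those tested: the brightest Akt2 probe set had a log2 difference of -2.69 (SE 0.249) and did not pass. A count of 0 is thus no evidence that nothing differed. With the array split as a block, 1750 tested probe sets had an unadjusted p under 0.05 in limma. With the array split as a block the standard error of Ramp1 1417481_at was 0.153, that of Ramp2 0.108 and that of Calcrl 1418489_a_at 0.118, and 1 of 11075 genes over the whole array passed (0.00903%). In 1 of the 7 tested probe sets, Ramp1 1417481_at, did all knockout arrays lie below all wild type arrays, as in 3.66% of all tested probe sets, and in 0 did they lie above, as in 3.64%. Ranked by log2 difference, 0.724% of the tested probe sets were as low as or lower than Ramp1, 6.13% as low as Ramp3, 9.81% as low as Calcrl 1418489_a_at and 45.8% as low as Ramp2. Ramp1 was chosen by its low p in this same comparison, so its separation and its rank were largely fixed by that choice.

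The RAMP and Calcrl signals could also be compared between the replicate 1 arrays and the other 4 arrays, with genotype in the limma model. The choice of genes did not use this contrast itself, but the array split was found in these same arrays. Ramp1 was chosen by a low p, which favours a probe set that varies little within each genotype, the array split included. The Ramp1 value in this contrast is therefore partly fixed by that choice. Ramp2 was lower in the replicate 1 arrays, with a mean of 1791 ± 6.72 (SD, n = 2) against 2519 ± 46.7 (SD, n = 4) in the others (log2 -0.49, SE 0.115, limma adjusted p = 0.0263). Calcrl 1418489_a_at was lower as well, with a mean of 189.7 ± 36.4 in the replicate 1 arrays against 280.8 ± 37.6 in the others (log2 -0.52, SE 0.125, limma adjusted p = 0.0279). These were 2 of the 7 tested probe sets, where 13.2% of all tested probe sets were lower, 20% were higher and 33.1% differed either way. Calcrl 1425814_a_at had -0.88 (SE 0.318, limma adjusted p = 0.0789), Ramp3 -0.39 (SE 0.178, limma adjusted p = 0.14), Ramp1 1417481_at 0.10 (SE 0.163, limma adjusted p = 0.665) and Adm 1416077_at 0.02 (SE 0.201, limma adjusted p = 0.942).

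Scaling moved this contrast as a whole: the median over all tested probe sets was 0.10 as deposited, -0.04 after quantile normalization and -0.59 after median scaling. Ramp2 and Calcrl 1418489_a_at passed under all 3, while Ramp1 1417481_at turned to -0.62 (limma adjusted p = 0.0164) under median scaling. Median scaling also brought Ramp3 to -1.07 (limma adjusted p = 0.00806), Calcrl 1425814_a_at to -1.57 (limma adjusted p = 0.0114) and Adm 1447839_x_at to -0.54 (limma adjusted p = 0.0407). With 1 array left out, Ramp2 passed only without knockout replicate 1 (adjusted p = 0.0445), while without knockout replicate 2 or 3 or wild type replicate 1, 2 or 3 it had 0.0739, 0.0595, 0.0826, 0.0739 and 0.0781. Calcrl 1418489_a_at had adjusted p of 0.0515 to 0.0775 over the 6 fits without an array, and Calcrl 1425814_a_at passed without knockout replicate 1 (adjusted p = 0.0242). Without either replicate 1 array that arm holds 1 array, which is then assumed to vary like the others. Without the filter on dim probe sets Ramp2 had 0.0968 and Calcrl 0.096. Of the 12 blood endothelial marker genes, 4 had both replicate 1 arrays below the other 4 arrays (Cdh5, Kdr, Flt1 and Emcn), 3 had both above them (Tie1, Egfl7 and Cldn5) and 5 overlapped, beside 23.8% of all tested genes below and 30.2% above. Cdh5 had 923.8 and 953.6 in the replicate 1 arrays, against 1985.6 to 2381.0 in the other 4, while Cldn5 had 851.5 and 920.6 in the replicate 1 arrays, against 449.2 to 536.8 in the other 4. These genes were named after their values were seen. The part of these genes in the Ramp2 and Calcrl values was not tested.

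The other peptide and receptor genes of the family were mostly too dim to test. Calcb, which encodes beta-CGRP, had 59.6, 1.8 and 3.1 in the knockout arrays, against 123.3, 3.3 and 30.9 in the wild type arrays. Adm2, which encodes the related peptide intermedin, had 26.4, 10.7 and 19.5 in the knockout arrays, against 21.7, 31.1 and 71.7 in the wild type arrays. Iapp, which encodes amylin, had at most 32.6 in the knockout and 69.0 in the wild type, and Calcr, the calcitonin receptor, 58.4 in the knockout and 146.0 in the wild type, both of these in replicate 1. Calca, the gene of calcitonin and alpha-CGRP, was not analysed here. No CGRP gene was thus tested here.

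Of the accessory genes, Crcp, whose product couples the receptor to its G protein, had 389.5 ± 64.3 in the knockout and 450.1 ± 61.4 in the wild type (SD, n = 3 each; log2 -0.20, SE 0.194). Ackr3, a scavenger receptor that clears adrenomedullin, had 4539.9, 6819.7 and 4527.5 in the knockout arrays, against 2521.1, 7923.7 and 8260.7 in the wild type arrays. Its knockout values lay inside the wild type range (log2 -0.08, SE 0.473).

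Over the pathway lists, 0 of 52 tested genes passed in limma over all genes and 0 had an unadjusted p under 0.05, where 0% and 240 of 11075 tested genes did. There were 26 genes higher and 26 lower, with a median log2 difference of -0.01, beside 0.01 over all tested genes. Median scaling moved the median of all tested probe sets to 0.11, against 0.01 as deposited, so list medians of that size or less have no settled direction. With each array left out in turn, only 4 of 19 list medians kept their sign every time: blood endothelium, mast cells, Schwann cells and other RAMP partner receptors. Mast cells and Schwann cells had only 2 tested genes each. Over replicates 2 and 3 alone the sign turned for Schwann cells, to -0.08, and for other RAMP partner receptors, to 0.20. In 0 of the 52 did all knockout arrays lie above the wild type arrays and in 2 below, Akt1 and Adcyap1r1, beside 3.9% and 3.56% of all tested genes.

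Among genes that process or break down the peptides, 4 of 7 were higher and 3 lower, with a median of 0.10. Mme, the neprilysin gene, had 374.4 ± 54.6 in the knockout and 262.7 ± 90.8 in the wild type (log2 0.53, SE 0.284). Pam, whose product adds the amide end that both peptides need, had 2000 ± 457 in the knockout and 1522 ± 651 in the wild type (log2 0.47, SE 0.36). In both genes the groups overlapped, Ece2 had -0.15 and Cpe 0.21.

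Of the stimulatory G protein and adenylyl cyclases, 2 of 8 were higher and 6 lower, with a median of -0.09. Adcy4 had -0.28 (SE 0.22), Adcy6 -0.09 (SE 0.182) and Gnas, which encodes the G protein subunit itself, 0.09 (SE 0.186). Adcy3 had -0.20 on its brightest probe set and 1.00 on another. Genes of protein kinase A and CREB were higher in 7 of 8, with a median of 0.08: the catalytic subunit genes Prkacb and Prkaca had 0.20 (SE 0.248) and 0.19 (SE 0.246), Crem 0.08, and Prkar1b 0.24 with -0.22 and 0.48 on its other tested probe sets. That list had a median of 0.02 over replicates 2 and 3, and of 0.30 for the first pair.

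Receptor desensitisation and traffic genes had a median of -0.11 over 7 genes, 3 higher and 4 lower. The arrestin genes Arrb1 and Arrb2 had -0.28 (SE 0.191) and -0.32 (SE 0.406), Grk3 had -0.11, and Slc9a3r1, a scaffold of the RAMP3 receptor, had 0.13 on its brightest probe set and -0.32 and 0.10 on the others. Of the nitric oxide and cyclic GMP genes, 3 of 6 were higher and 3 lower, with a median of -0.08. Akt1, the kinase closest to Akt2, had 2284 ± 26.3 in the knockout and 2678 ± 35.2 in the wild type (log2 -0.23, SE 0.143) with groups that did not overlap, and its other tested probe sets had -0.40 and -0.67. Nos3, the endothelial nitric oxide synthase, had -0.17 (SE 0.372), Gucy1b1 -0.17 and Gucy1a1 0.29, with 0.03 and -0.27 on the other Gucy1a1 probe sets.

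Other receptors that RAMPs can partner in transfected cells were dim, with 5 of 12 tested and a median of -0.38. The median for the first pair was -0.39, and 0.20 over the other arrays, and it was -0.07 without wild type replicate 1. Adcyap1r1, the PACAP receptor, had 101.1 ± 23.7 in the knockout and 153.9 ± 53 in the wild type (log2 -0.50, SE 0.264), Casr had -0.60 (SE 0.424), Gper1 -0.38 and Pth1r 0.09.

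**Figure D3:**
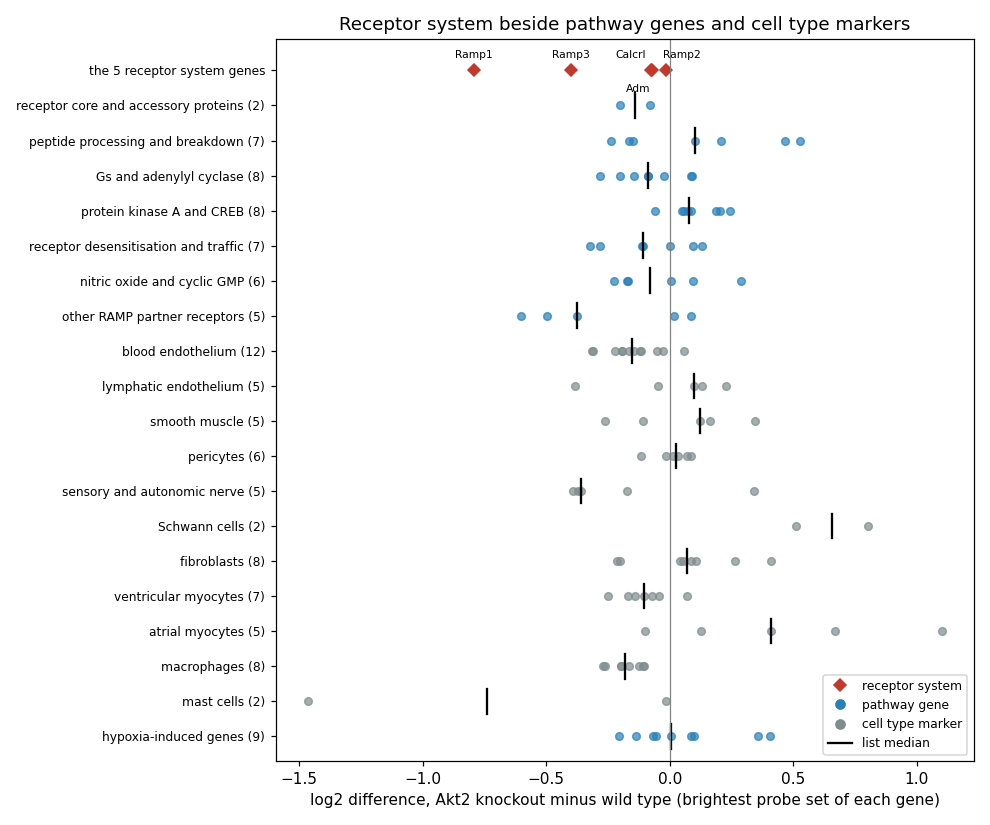
Log2 difference, Akt2 knockout minus wild type (horizontal axis), of the brightest probe set of each tested gene, for the 5 receptor system genes (red, top row), pathway genes (blue) and cell type markers (grey), with the number of tested genes after each list name and black bars for list medians. Ramp1, at -0.79, lies to the left of every pathway gene shown, whose lowest value is -0.60. Its choice by low p in this comparison largely fixes that place. Cpa3 among the mast cell markers is lower still, at -1.47. Calcrl and Adm overlie each other at -0.07 and -0.08.

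Markers of the cells that could carry these receptors are given beside them. Blood endothelial genes were lower in 11 of 12, with a median of -0.16 (-0.15 both for the first pair and over the other arrays, but -0.05 under median scaling), and summed signals were 16252 to 18789 in the knockout and 17738 to 21320 in the wild type. Vwf had 818 ± 63.9 in the knockout and 1026 ± 110 in the wild type, Tek -0.22, Robo4 -0.31 and Pecam1 -0.19, and in these 4 genes all knockout arrays lay below all wild type arrays, as in 3.56% of all tested genes. No endothelial gene passed in limma over all genes, and 0 had an unadjusted p under 0.05. Fewer endothelial cells, less RNA per cell, and the variation or scaling of the arrays cannot be told apart in these whole ventricle data. The part of these markers in the Ramp1, Ramp3 and Calcrl differences was not tested.

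Lymphatic endothelial genes had a median of 0.10 over 5 genes: Prox1 had 0.23 (SE 0.15) with all knockout arrays above the wild type arrays (0.54 and 0.06 on its other tested probe sets), while Lyve1 had -0.38, Pdpn 0.10 and Reln 0.13. Smooth muscle genes had a median of 0.12 over 5, with Acta2 at -0.26, Smtn at 0.12, Myh11 at 0.34 and Tagln at 0.16, and Cnn1 and Lmod1 were too dim to test. Pericyte genes had a median of 0.02 over 6, with Kcnj8 at -0.12, Abcc9 at 0.08, Rgs5 at 0.07 and Pdgfrb at 0.03. In none of the smooth muscle or pericyte genes did the groups separate. Of all tested genes, 3.56% had all knockout arrays below the wild type arrays and 3.9% above, so none among so few genes says little.

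Nerve genes, listed because CGRP comes from sensory fibres, had 5 of 9 tested, 1 higher and 4 lower, with a median of -0.36 (-0.49 for the first pair, -0.20 over the other arrays, and 0.01 without wild type replicate 1). Tac1, which encodes substance P, had 204.7, 333.9 and 343.2 in the knockout arrays, against 342.6, 387.9 and 395.5 in the wild type arrays, where knockout replicate 3 overlapped wild type replicate 1 (log2 -0.36, SE 0.227). Stmn2, a neuronal growth protein gene, had -0.39 (SE 0.198), Uchl1 -0.37 and Syp 0.34. Summed nerve signals were 1410 to 1698 in the knockout and 1603 to 2380 in the wild type, and Th, Prph, Snap25 and Trpv1, the last known from many CGRP fibres, were too dim to test. Their part in the Ramp1 value was not tested.

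Hypoxia-induced genes, listed because Adm is known as a hypoxia-induced gene, had a median of 0.01 over 9 genes, 5 higher and 4 lower. Vegfa had 2813 ± 692 in the knockout and 2151 ± 168 in the wild type (SD, n = 3 each; log2 0.36, SE 0.215), with 0.78 for the first pair and 0.15 over the other arrays, and its other tested probe set had 0.05. Egln3 had 0.41, Bnip3 -0.21 and Ndrg1 -0.14.

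Across the 6 arrays, the brightest probe sets of Ramp2 and Calcrl had a Pearson r of 0.81, those of Ramp3 and Calcrl 0.74 and those of Ramp2 and Ramp3 0.61. Ramp1 had -0.08 with Ramp2, -0.11 with Calcrl, -0.11 with Adm and 0.48 with Ramp3. The arrays share a scaling, and the replicate 1 arrays were low for Ramp2, Ramp3 and Calcrl, so these values describe the arrays only.

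The 5 genes whose brightest probe sets correlated most with Ramp1 over the 6 arrays, of 11074 tested genes, were Tmem183a (Pearson r 0.98), Vav3, LOC102631979, Nostrin and Ccnd3 (0.97 each). In all 5 the knockout arrays lay below the wild type arrays, which a high correlation with Ramp1 largely fixes. The sizes differed: the log2 difference was -0.10 for Tmem183a, -0.38 for Vav3, -0.54 for LOC102631979, -0.41 for Nostrin and -0.21 for Ccnd3, against -0.79 for Ramp1. Nostrin, whose product binds the endothelial nitric oxide synthase, had 296.7 ± 29.6 in the knockout and 401.5 ± 24.2 in the wild type. Other tested probe sets went the other way for Tmem183a (0.26 and 0.16) and gave -0.11 and 1.13 for Vav3.

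**Figure D4:**
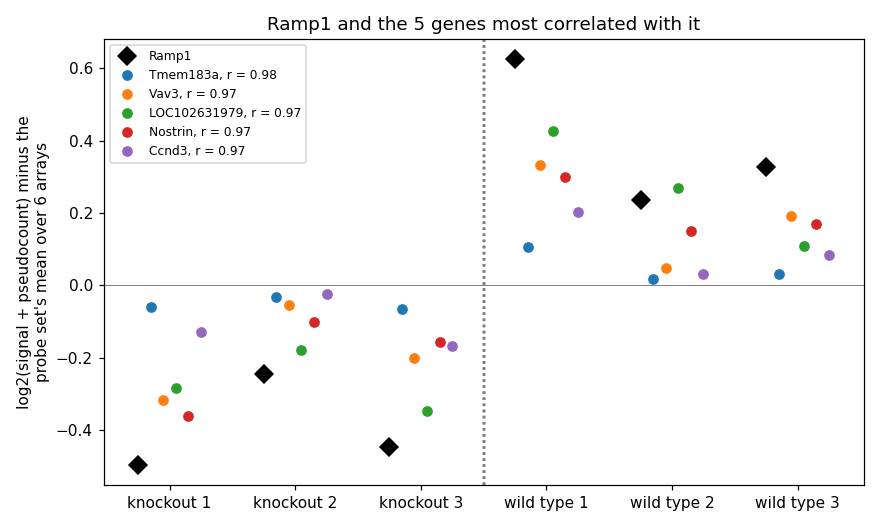
Log2(signal + pseudocount) of Ramp1 1417481_at (black diamonds) and of the 5 genes most correlated with it (coloured points), each centred on its mean over the 6 arrays (vertical axis), in the 3 knockout arrays (left) and the 3 wild type arrays (right). All 6 genes are below their mean in each knockout array and above it in each wild type array, with the largest spread for Ramp1.

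For the other genes the closest were Jpt2, Inpp5a and Tor1aip1 with Ramp2 (r 1.00 each), Lrtm1 (0.99), Slc25a30 (0.97) and P2ry14 (0.97) with Ramp3, Prps2, Trnt1 and Efcab2 with Calcrl (0.99 each), and Ttf1 (0.99), Nup54 (0.98) and Rac2 (0.98) with Adm. The Ramp2 set followed the split between the replicate 1 arrays and the others: Inpp5a had 5730.8 and 5821.3 in the replicate 1 arrays, against 7293.2 to 7574.7 in the other 4.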

How the data were processed

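The authors deposited 1 table of linear signal intensity for 45101 probe sets on 6 arrays, computed with MAS5 per the submitters' processing notes, with no version named. The deposited scaling was kept. The number of arrays limits the precision. From it, 64 control probe sets were left out, values were put on log2(signal + 21.7), 21.7 being the 20th percentile of all values, and a filter kept 22519 probe sets whose mean reached 6.868, the median. Limma 3.58.1 (R 4.3.3) then compared, by lmFit, eBayes and Benjamini-Hochberg adjustment at 0.05, 3 knockout against 3 wild type arrays with no covariate. For gene lists, 11075 genes each had their brightest probe set. Platform annotation gave 34945 probe sets 1 symbol, 932 several (not used to name a gene) and 9160 none. Dim members took their difference from a fit without the filter. The replicate 1 contrast had genotype in its model.

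The members, lists and tests were chosen with earlier results of these data known. Named genes were the 5 members, Akt2, the other peptide and receptor genes, up to 4 genes of each further list by lowest unadjusted p, and the genes with the highest Pearson r, 5 for Ramp1 and 3 for each other member. Alternatives covered the pseudocount, the filter, the scaling, the variance estimate, blocks, subsets of arrays and leaving out each array. The fits were tested on simulated data. The labels number samples 1 to 3 in each genotype. After subtracting genotype means, arrays sharing a number correlated at 0.61, 0.45 and 0.39, so the replicate block was fitted too. The array split enters these values, and arrays with different numbers are not set beside them. They do not show that the numbers mark pairs. Promoter sequences are from RefSeq, GRCm38.p6.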

Additional observations from a re-analysis of the deposited data

How the results depend on the processing

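The replicate block called 0 probe sets and 0 genes, as without it, and changed no call. The number of genes called was 1 with a filter at the 75th percentile, 1 with trended robust variance and 1 with the array split as a block, which also called 1 probe set; leaving out each array in turn gave 0 each time. Ramp1 1417481_at was lower in the knockout in all 17 settings, from -1.12 in the replicate 1 pair to -0.63. These settings reuse the arrays and the comparison by which Ramp1 was chosen, so they are no independent check of its direction. In the replicate 1 pair alone, Adm 1416077_at had 0.37, Calcrl 1425814_a_at 0.68, Ramp1 1431413_at -1.89 and Ramp1 1447474_at 0.53, and in replicates 2 and 3 alone Ramp1 1431413_at had -0.18. Between the replicate 1 arrays and the others, 7464 probe sets were called, against 4272 without a filter, 12382 under median scaling and 3142 to 8799 with 1 array left out. In that contrast Adm 1416077_at turned to -0.19 under quantile normalization and -0.67 under median scaling, Adm 1447839_x_at to -0.20 and -0.54, and Ramp1 1417481_at to -0.62 under median scaling. With 1 array left out, Adm 1416077_at ran from -0.32 (without knockout replicate 1; -0.08 without knockout replicate 2) to 0.36, and Ramp1 1417481_at from -0.15 (without wild type replicate 1) to 0.34. The cause was not tested.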

Other observations

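Markers of the remaining cell types gave these values. Macrophage genes were lower in the knockout in 8 of 8, with a median of -0.18 that was -0.07 under median scaling, -0.40 when knockout replicate 3 was left out and 0.08 when knockout replicate 1 was, and 0 passed in limma over all genes or had an unadjusted p under 0.05. Csf1r, the receptor that macrophages need, had 4390 ± 585 in the knockout and 5280 ± 465 in the wild type (SD, n = 3 each). Of the mast cell genes 2 of 6 were bright enough to test, and Cpa3, a mast cell protease gene, had 64.2, 53.6 and 35.6 in the knockout arrays, against 244.9, 132.4 and 168.4 in the wild type arrays (log2 -1.47, SE 0.262, limma adjusted p = 1). Kit, the other one, had 116.8 ± 45.4 in the knockout and 114.3 ± 20.9 in the wild type (log2 -0.01, SE 0.268). Fibroblast genes had a median of 0.07 over 8, with Col3a1 at 0.26. Atrial genes had a median of 0.41 over 5, which was -0.08 without wild type replicate 2, with Myl7 at 1.10 (SE 0.926). The 2 Schwann cell genes tested, Kcna1 and Sox10, had 0.80 and 0.51, with 2.38 and 1.87 in the replicate 1 pair but 0.01 and -0.17 over replicates 2 and 3, and another Kcna1 probe set had -0.11.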
